A study of Mus musculus with 6 samples.

Results

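The 9 genes described here encode the cardiac receptors for noradrenaline and adrenaline and the first proteins that act on them: the receptors *Adrb1*, *Adrb3*, *Adra1a* and *Adra1b*, the receptor kinases *Grk2* and *Grk5*, the arrestin *Arrb1*, and the adenylyl cyclases *Adcy5* and *Adcy6*. They were chosen by name as a pathway, with earlier results of these data known. All 9 were found among the 17441 mouse genes listed in at least 1 library. Of these, 8 were among the 13120 genes that reached 1 FPKM in 2 or more libraries, which were tested, and *Adrb3* was not. FPKM relates the fragments of a gene to its length and to all fragments of the library, so it allows for length and depth. It is a share of the library, so comparisons between libraries also depend on how these are scaled.

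RNA came from heart tissue below the ligature of male mice on a C57BL/6 background, 12 weeks old by the labels, taken 3 days after surgery. WT mice had a sham operation (WT Sham) or ligation of the left coronary artery (WT MI), and mice lacking *Card9*, an adapter of innate immune signalling, had the same ligation (*Card9* KO MI). The sources used here do not limit the knockout to a cell type, and no sham group of that genotype was analysed here, so the effects of genotype and ligation cannot be told apart between *Card9* KO MI and WT Sham. Each group had 2 libraries, and nothing in the labels says that they came from separate animals, so p-values measure the spread between these libraries, which may be technical.

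*Card9* itself stood at 0.99 and 1.03 FPKM in the sham libraries, 3.39 and 5.08 in the WT MI libraries, and 9.85 and 6.94 in the libraries with the *Card9* KO MI label. Since *Card9* was not lower under the knockout label than in WT MI (log2 fold change of 0.85 with a standard error of 0.23, adjusted p = 0.11 from limma), the group is called the KO-labelled libraries below, and every direction drawn from it rests on the label. FPKM is 1 value per gene, so exons cannot be looked at apart. Depth, estimated from the spacing of the lowest FPKM values, was between 3010000 and 3155000 fragments in WT Sham and between 3905000 and 4280000 in the infarct libraries. All 12 cardiomyocyte markers were above an FPKM of 44.0 in every library.

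In the heart, noradrenaline released by sympathetic nerves binds beta-1 receptors, which act through the stimulatory G protein on adenylyl cyclase. The cAMP made there activates protein kinase A, which speeds and strengthens the beat. Alpha-1 receptors act through Gq and phospholipase C instead. G protein-coupled receptor kinases phosphorylate receptors that are occupied by agonist, and arrestins then bind these receptors, uncouple them from their G proteins and take them into the cell. Long stimulation, as in heart failure, is known for loss of beta-1 receptors from the myocyte surface and for a rise of GRK2.

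In the values as deposited, the calls among the 8 members tested differed in direction by role 3 days post-MI. In WT MI, the alpha-1A receptor *Adra1a* was at 36.2% of its WT Sham mean, while the desensitizing genes *Grk5*, *Arrb1* and *Grk2* were at 184%, 176% and 137% of theirs. The beta-1 receptor *Adrb1* and the cyclase *Adcy6* were lower by a smaller amount, at 68.7% and 74.6%, a direction that turned when libraries were scaled to cardiomyocyte markers. On the higher side, *Grk2* lost its call under upper-quartile scaling, quantile normalization and scaling without the 100 most abundant genes. *Grk5* fell from a log2 fold change of 0.79 to 0.52 without WT MI replicate 1. Over all genes, 27.7% were called higher and 9.39% lower in this comparison, beside 37.5% and 37.5% of the 8 members. The split by role is one of these members only: of 4 other cyclases tested, 2 were called higher and none lower. In bulk tissue, fewer cells of a type and less RNA per cell cannot be told apart. Between the KO-labelled libraries and WT MI, no member passed the test.

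The genes are given first by where they lie, in the mm9 build with the GENCODE annotation of that build. *Adrb1* is a gene of 1 exon on the plus strand of chromosome 19, from 56796862 to 56799352. *Grk5* lies on the same strand of chromosome 19, from 60965652 to 61168456, with 16 exons in its longest coding transcript, and *Grk2*, annotated there under its older name *Adrbk1*, lies on the minus strand from 4286001 to 4306222 with 21 exons. *Adra1a* spans 67254088 to 67390005 on the plus strand of chromosome 14, *Adra1b* 43588108 to 43714712 on the minus strand of chromosome 11, and *Adrb3* 28336248 to 28340060 on the minus strand of chromosome 8. *Arrb1* spans 106683976 to 106755281 on the plus strand of chromosome 7 and holds the microRNA gene *Mir326*. *Adcy5* spans 35154963 to 35305823 on the plus strand of chromosome 16, and *Adcy6* 98420425 to 98438064 on the minus strand of chromosome 15. A small RNA gene overlaps *Adcy5* on the other strand, and 2 noncoding genes overlap *Grk5* in the same way. Whether the counting used strand is not given in the sources used here, so reads of these overlapping genes cannot be told apart.

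Promoter sequences from RefSeq (GRCm38.p6, 250 bases before to 50 after the start) were matched to 4 of the 9 genes, *Adrb1*, *Adra1b*, *Grk5* and *Adcy5*. Those of a receptor, a cyclase and a kinase are shown: *Adrb1* and *Adcy5* had lower means in the infarct groups and *Grk5* higher ones. *Adra1b*, whose means were also lower, had 2 entries, which are described below but not shown. Capitals mark the half-site TGACG of the cAMP response element, the site read by CREB downstream of protein kinase A, and the GC box GGGCGG, both searched on either strand.
*Adrb1*, chr19:56721867-56722166, plus strand: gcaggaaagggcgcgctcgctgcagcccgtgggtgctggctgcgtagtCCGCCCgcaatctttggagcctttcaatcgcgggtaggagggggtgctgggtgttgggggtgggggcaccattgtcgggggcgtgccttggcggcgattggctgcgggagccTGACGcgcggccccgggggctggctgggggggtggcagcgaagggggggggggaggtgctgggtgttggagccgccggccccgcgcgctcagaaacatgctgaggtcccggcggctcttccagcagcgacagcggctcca
*Adcy5*, chr16:35154614-35154913, plus strand: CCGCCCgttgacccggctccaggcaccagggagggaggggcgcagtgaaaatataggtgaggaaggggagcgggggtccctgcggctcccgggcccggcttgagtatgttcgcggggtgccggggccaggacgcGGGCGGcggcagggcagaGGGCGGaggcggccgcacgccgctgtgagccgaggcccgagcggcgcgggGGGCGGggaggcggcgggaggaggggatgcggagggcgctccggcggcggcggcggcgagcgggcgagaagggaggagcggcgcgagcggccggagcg
*Grk5*, chr19:60889499-60889798, plus strand: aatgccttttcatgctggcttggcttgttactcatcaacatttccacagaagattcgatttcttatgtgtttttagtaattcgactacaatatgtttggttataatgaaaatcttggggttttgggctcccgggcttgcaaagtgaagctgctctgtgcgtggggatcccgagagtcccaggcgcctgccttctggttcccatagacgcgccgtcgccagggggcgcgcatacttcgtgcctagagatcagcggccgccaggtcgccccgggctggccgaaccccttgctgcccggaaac
The *Adrb1* window held 1 half-site, at position -90 from the start, and 1 GC box. The *Adcy5* window held 4 GC boxes and no half-site, and the *Grk5* window neither. Of all 32851 promoters of this length, 20.8% held the half-site and 35.7% the GC box. The full element TGACGTCA, which contains the half-site, occurred in 1.79% of all promoters and in none of those of the 4 genes. GC content was 72.3% for *Adrb1*, 79.0% for *Adcy5* and 54.3% for *Grk5*, against a median of 52.7% over all promoters. The windows of *Adra1b* held no half-site. Entry 1 had a GC content of 42.3% and no GC box, and entry 2 had 71.3% and 2 GC boxes. A match describes letters in a window and is not evidence that a factor binds there.

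*Adra1a*, the alpha-1A receptor of cardiomyocytes, stood at 8.07 and 7.94 FPKM in the sham libraries, 2.25 and 3.55 in the WT MI libraries, and 1.90 and 3.09 in the KO-labelled libraries. All 4 infarct libraries were below both sham libraries. The mean fell from 8.01 ± 0.0919 (SD, n = 2) to 2.90 ± 0.919 in WT MI, a log2 fold change of -1.23 (standard error 0.24, adjusted p = 0.0056 from limma). It was the member with the largest absolute log2 fold change in this comparison. It was called lower in each of the 16 alternative settings in which it was tested, including scaling to cardiomyocyte markers, where the log2 fold change was -0.66 (adjusted p = 0.032). Between 34.8 and 109 estimated fragments stood behind each of its values.

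*Adrb1*, the main beta receptor of the ventricle, stood at 10.8 and 13.5 FPKM in the sham libraries, 8.31 and 8.34 in the WT MI libraries, and 7.06 and 8.52 in the KO-labelled libraries. The infarct libraries were below the sham libraries without overlap, and the gap between the sham libraries was wider than that between the infarct libraries of either group. The log2 fold change in WT MI against WT Sham was -0.48 (standard error 0.16, adjusted p = 0.046 from limma), and it turned to 0.14 with scaling to cardiomyocyte markers. The call was made in 8 of 17 alternative settings and was lost when any library other than WT Sham replicate 1 was left out, the log2 fold change being -0.33 without WT Sham replicate 2.

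*Adra1b*, the alpha-1B receptor, stood at 9.70 and 16.8 FPKM in the sham libraries, 9.91 and 7.65 in the WT MI libraries, and 7.81 and 11.1 in the KO-labelled libraries. The groups overlapped, and the sham libraries lay farthest apart. It did not pass the test in WT MI against WT Sham (log2 fold change -0.51, 95% interval -1.12 to 0.11, adjusted p = 0.18 from limma). Without WT Sham replicate 1, the lower of the sham pair, the log2 fold change was -0.87 and was called.

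*Adrb3*, the beta-3 receptor best known from adipocytes, had no value above 0 in 1 library of WT Sham and 1 of WT MI, and its highest FPKM was 0.18. At most 2.03 estimated fragments stood behind any of its values, below the 3 fragments taken as the floor. Differences of *Adrb3* between groups were therefore not detectable at this depth, which does not show that the gene is absent.

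The FPKM of the 4 receptors summed to 28.5 and 38.3 in the sham libraries, 20.5 and 19.7 in the WT MI libraries, and 16.9 and 22.8 in the KO-labelled libraries. *Adra1a* made up 28.3% and 20.7% of this sum in the sham libraries, 11% and 18% in the WT MI libraries, and 11.2% and 13.6% in the KO-labelled libraries. Its share was lower in each infarct library than in either sham library. In WT Sham the 2 alpha-1 receptors together held more of the sum than *Adrb1*, whose share was 37.7% and 35.1%. The ratio of *Adra1a* to *Adra1b* was 0.832 and 0.473 in the sham libraries, 0.227 and 0.464 in the WT MI libraries, and 0.243 and 0.278 in the KO-labelled libraries. WT MI replicate 2 came close to WT Sham replicate 2 in this ratio. With 2 libraries against 2, an exact permutation test cannot give a p below 0.333, and none was run on shares or ratios.

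**Figure D1:**
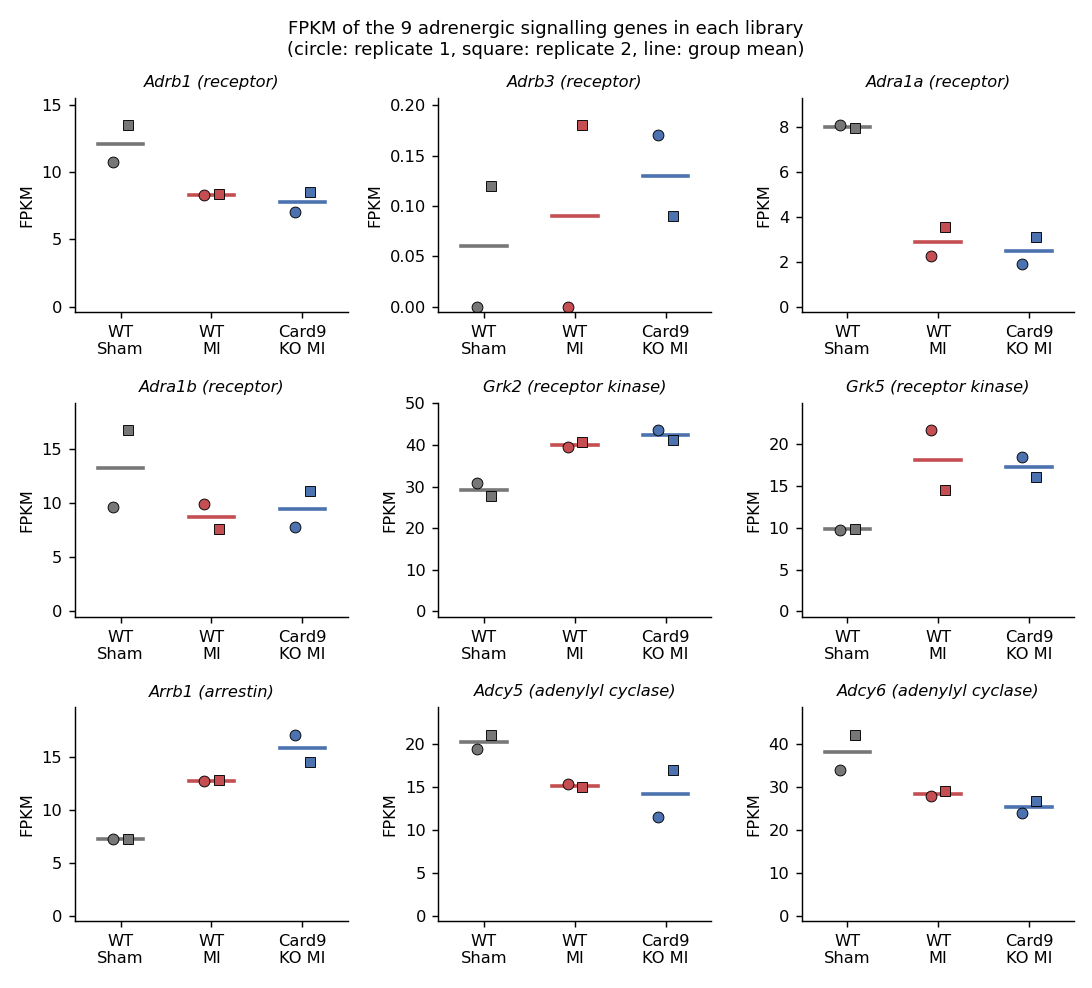
FPKM (vertical axis, linear, a scale of its own for each gene) of the 9 genes in the 6 libraries by group, with circles for replicate 1, squares for replicate 2 and lines for the means of 2 libraries. *Adra1a* is at 7.94 and 8.07 in WT Sham and between 1.90 and 3.55 in the infarct libraries, *Arrb1* is at 7.26 and 7.27 in WT Sham and between 12.7 and 17.1 in the infarct libraries, and *Adrb3* stays at or below 0.18.

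*Grk5*, a receptor kinase bound to the plasma membrane, stood at 9.78 and 9.89 FPKM in the sham libraries, 21.7 and 14.5 in the WT MI libraries, and 18.5 and 16.1 in the KO-labelled libraries. Every infarct library was above both sham libraries, and the WT MI pair was the widest. The log2 fold change in WT MI against WT Sham was 0.79 (standard error 0.19, adjusted p = 0.013 from limma). *Grk5* was called higher in 14 of 17 alternative settings. The call was lost without WT MI replicate 1, where the log2 fold change was 0.52, and without either of the sham libraries.

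*Grk2*, the kinase drawn to active receptors by G protein beta-gamma subunits, stood at 30.8 and 27.7 FPKM in the sham libraries, 39.5 and 40.6 in the WT MI libraries, and 43.6 and 41.2 in the KO-labelled libraries. It was the most abundant member in the infarct libraries, and its groups did not overlap. The rise in WT MI over WT Sham had a log2 fold change of 0.44 (standard error 0.10, adjusted p = 0.012 from limma). The direction held under each scaling, but the call was lost with upper-quartile scaling (0.23), quantile normalization (0.25) and scaling without the 100 most abundant genes (0.30), and when WT Sham replicate 2 or either WT MI library was left out.

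*Arrb1*, which encodes beta-arrestin 1, stood at 7.27 and 7.26 FPKM in the sham libraries, 12.7 and 12.8 in the WT MI libraries, and 17.1 and 14.6 in the KO-labelled libraries. Within WT Sham and WT MI the SD was 0.0071 and 0.0778 (n = 2), but an SD of 2 libraries says little about the spread. Between 156 and 523 estimated fragments stood behind each of its values. The log2 fold change in WT MI against WT Sham was 0.74 (standard error 0.13, adjusted p = 0.0040 from limma), and the call was kept in all 17 alternative settings.

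The ratio of *Grk2* to *Grk5* was 3.15 and 2.80 in the sham libraries, 1.82 and 2.80 in the WT MI libraries, and 2.36 and 2.56 in the KO-labelled libraries. *Grk2* thus stayed above *Grk5* in every library, and the lowest ratio came from WT MI replicate 1, the library in which *Grk5* was highest. The summed FPKM of the 2 kinases and *Arrb1* was 47.9 and 44.9 in the sham libraries, 73.9 and 68.0 in the WT MI libraries, and 79.2 and 71.8 in the KO-labelled libraries.

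*Adcy6* and *Adcy5* encode the main adenylyl cyclases of the cardiomyocyte, both inhibited by calcium. *Adcy6* stood at 34.0 and 42.2 FPKM in the sham libraries, 27.9 and 29.0 in the WT MI libraries, and 24.0 and 26.7 in the KO-labelled libraries. The groups did not overlap, and the spread was widest in WT Sham. In WT MI against WT Sham *Adcy6* was called lower, with a log2 fold change of -0.40 (standard error 0.13, adjusted p = 0.043 from limma) that turned to 0.26 with scaling to cardiomyocyte markers. The call was made in 8 of 17 alternative settings and was lost when any library other than WT Sham replicate 1 was left out, with -0.25 without WT Sham replicate 2.

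*Adcy5* stood at 19.5 and 21.2 FPKM in the sham libraries, 15.3 and 15.1 in the WT MI libraries, and 11.5 and 17.0 in the KO-labelled libraries. All infarct libraries were below the sham libraries, but the KO-labelled pair was wider than the gap between the means of WT MI and WT Sham. Its log2 fold change in WT MI against WT Sham was -0.39 (95% interval -0.80 to 0.01, adjusted p = 0.11 from limma), which did not pass the test. It was called lower in 5 of 17 alternative settings, among them upper-quartile scaling (-0.60), quantile normalization (-0.61) and the fits without either KO-labelled library, and turned to 0.25 with scaling to cardiomyocyte markers. The ratio of *Adcy5* to *Adcy6* was 0.573 and 0.502 in the sham libraries, 0.550 and 0.520 in the WT MI libraries, and 0.481 and 0.637 in the KO-labelled libraries. In each library *Adcy6* was the more abundant cyclase, and the ratios of the 3 groups overlapped.

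**Figure D2:**
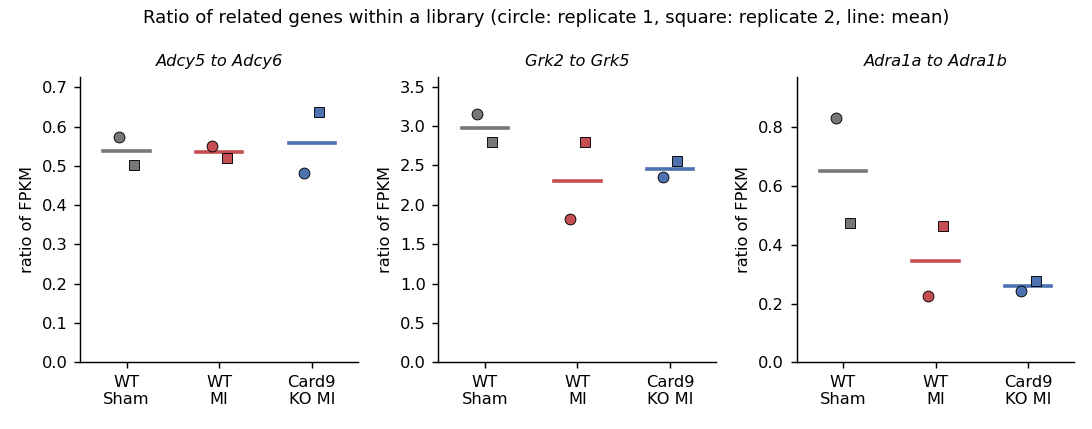
Ratio of FPKM (vertical axis, linear, from 0) of *Adcy5* to *Adcy6*, *Grk2* to *Grk5* and *Adra1a* to *Adra1b* within each of the 6 libraries, with circles for replicate 1, squares for replicate 2 and lines for the means of 2. The cyclase ratios lie between 0.481 and 0.637 with the groups overlapping, the kinase ratio is lowest in WT MI replicate 1 at 1.82, and the receptor ratio is highest in WT Sham replicate 1 at 0.832.

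Counted together for WT MI against WT Sham, 3 of the 8 members tested were called higher (*Grk2*, *Grk5* and *Arrb1*) and 3 lower (*Adra1a*, *Adrb1* and *Adcy6*). Over all 13120 genes, 27.7% were called higher and 9.39% lower, so the 37.5% of members called higher was not far from the share of all genes. The members had a median log2 fold change of -0.40, against 0.19 over all genes. The counts rest on few libraries: 1 member was called higher without WT Sham replicate 2 or without WT MI replicate 1, and 1 was called lower without WT Sham replicate 2 or without either WT MI library.

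Markers of cardiomyocytes and of infiltrating cells moved with these results. The summed FPKM of the 12 cardiomyocyte markers was 48710 and 49623 in the sham libraries, 30110 and 30832 in the WT MI libraries, and 25483 and 29551 in the KO-labelled libraries. In WT MI, 8 of the 12 were called lower than in WT Sham, and their log2 fold changes ran from -1.24 to 0.05 around a median of -0.80. The summed FPKM of 10 macrophage markers was between 343 and 399 in the sham libraries, 1391 and 1799 in the WT MI libraries, and 2096 and 2880 in the KO-labelled libraries. All 10 of these markers were called higher in WT MI than in the sham group. Neutrophil markers summed to between 5.4 and 7.64 FPKM after sham surgery, 92.9 and 212 in the WT MI libraries and 46.7 and 59.8 in the KO-labelled libraries, with no value above 0 for *Ly6g* in any library, and fibroblast markers to between 472 and 501, 1338 and 1777, and 2648 and 2741. Endothelial markers stayed between 345 and 422 in all 6 libraries, and markers of smooth muscle cells and pericytes summed to between 124 and 144, 123 and 131, and 201 and 208. The 7 markers of this last sum moved in both directions. Against WT Sham, 2 were called higher and 2 lower in WT MI, and 5 higher and 2 lower in the KO-labelled libraries. *Tagln* alone stood at 37.6 and 44.6 FPKM in the WT MI libraries and 125 and 106 in the KO-labelled libraries. The part of cell composition in the members' changes was not tested.

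When each library was scaled to the geometric mean of the 12 markers, *Adrb1* (0.14), *Adra1b* (0.12), *Adcy5* (0.25) and *Adcy6* (0.26) had log2 fold changes above 0 in WT MI against WT Sham, none of them called. *Adra1a* remained lower, at -0.66, and *Grk5*, *Arrb1* and *Grk2* were higher, at 1.42, 1.34 and 1.10. This scaling moved the median of all genes from 0.19 to 0.75, so the first 4 genes lay below that median while the kinases and *Arrb1* lay above it. The other 3 scalings moved the median the other way, to 0.0039 with the upper quartile, 0.06 without the 100 most abundant genes and -0.09 with quantile normalization. Under those, all 5 receptor and cyclase genes tested kept log2 fold changes below 0 and the 3 desensitizing genes kept values above 0.

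**Figure D3:**
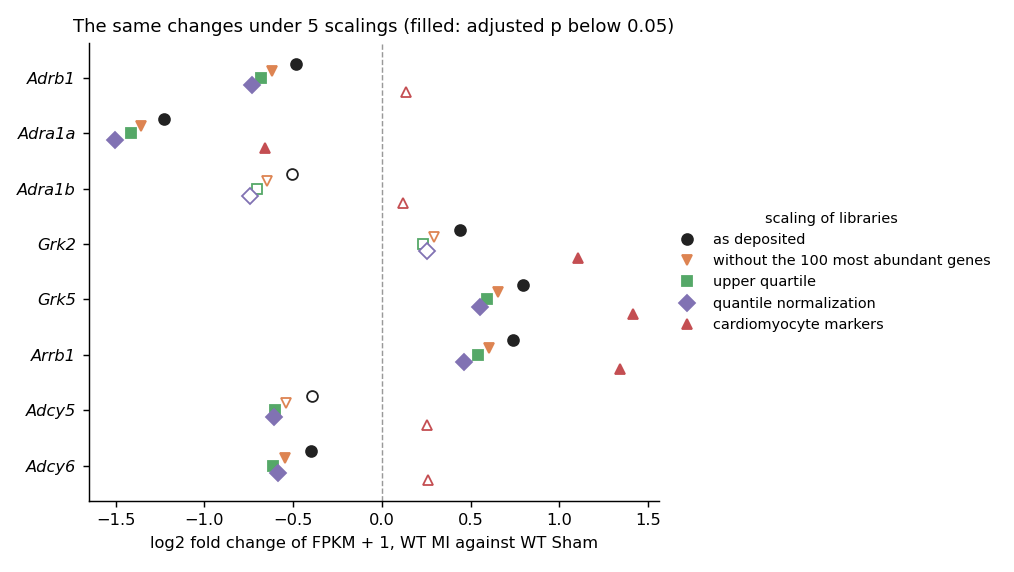
Log2 fold change of FPKM + 1 (horizontal axis) of the 8 tested members in WT MI against WT Sham, 2 libraries each, as deposited (circles) and under 4 other scalings of the libraries (other symbols), filled where the adjusted p was below 0.05. Scaling to cardiomyocyte markers puts *Adrb1*, *Adra1b*, *Adcy5* and *Adcy6* to the right of 0, between 0.12 and 0.26, while *Adra1a* stays to the left at -0.66 and *Grk2*, *Grk5* and *Arrb1* stay to the right under each scaling.

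The comparison of the KO-labelled libraries with WT MI asks whether the genotype changed these genes in the infarcted heart. No member was called by limma: 0 of 8 passed at an adjusted p below 0.05, and 0 of 8 had an unadjusted p below 0.05. Over all genes, 0.816% were called higher and 0.587% lower, so 0 of 8 was near the background. The count was also 0 under each alternative setting tried. The median log2 fold change of the members was -0.07, against 0.04 over all genes.

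*Arrb1* had the smallest p of the 8. Its mean was 12.8 ± 0.0778 (SD, n = 2) in WT MI and 15.8 ± 1.82 in the KO-labelled libraries, without overlap of the libraries, and its log2 fold change of 0.29 had a 95% interval from -0.02 to 0.59 (adjusted p = 0.27 from limma). *Adcy6* and *Grk2* also had libraries that did not overlap between the infarct groups, with log2 fold changes of -0.16 (95% interval -0.46 to 0.14) and 0.08 (-0.16 to 0.32). Such separation of 2 libraries from 2 has an exact permutation p of 0.333 at the least, and its share over all genes was not counted. It is therefore no sign of a genotype difference. The sign for *Adcy6* turned with scaling to cardiomyocyte markers, to 0.0094.

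The other members overlapped between the infarct groups. The 95% intervals ran from -0.46 to 0.28 for *Adrb1*, from -0.71 to 0.39 for *Adra1a*, from -0.53 to 0.71 for *Adra1b*, from -0.47 to 0.39 for *Grk5* and from -0.51 to 0.29 for *Adcy5*. For *Adra1a* this leaves room for a level between 0.612 and 1.31 times that of WT MI on the FPKM + 1 scale. The test therefore does not show that the infarct groups were alike, only that no difference was detectable with 2 libraries each.

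Set against WT Sham, the KO-labelled libraries had 3 members called higher (37.5%) and 4 lower (50%) of 8 tested. Over all genes, 34.8% were called higher and 14.3% lower in this comparison, which shares its sham libraries with the one above. The share of members called higher was thus near that of all genes. *Arrb1* was higher by a log2 fold change of 1.02 (standard error 0.13, adjusted p = 0.00054 from limma), *Grk5* by 0.75 (0.19, adjusted p = 0.012) and *Grk2* by 0.52 (0.10, adjusted p = 0.0042). The call of *Grk5* was lost without *Card9* KO MI replicate 1 (0.66) and with quantile normalization (0.47), and that of *Grk2* with upper-quartile scaling (0.27). *Arrb1* reached 218% of its sham mean in linear FPKM.

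On the lower side, *Adra1a* had a log2 fold change of -1.39 (standard error 0.24, adjusted p = 0.0022 from limma) and was at 31.2% of its sham mean. *Adrb1* (-0.57, adjusted p = 0.019), *Adcy6* (-0.56, adjusted p = 0.0085) and *Adcy5* (-0.50, adjusted p = 0.044) were called as well, and turned to 0.21, 0.27 and 0.31 with scaling to cardiomyocyte markers. *Adra1b* was not called, at -0.42 (adjusted p = 0.23). Only *Adra1a* of the 4 was still called lower without WT Sham replicate 2 or without *Card9* KO MI replicate 1, and *Adcy5* had a log2 fold change of -0.24 without the latter. *Adra1a* and *Arrb1* kept their calls in every alternative setting in which they were tested, 16 and 17 of them.

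**Figure D4:**
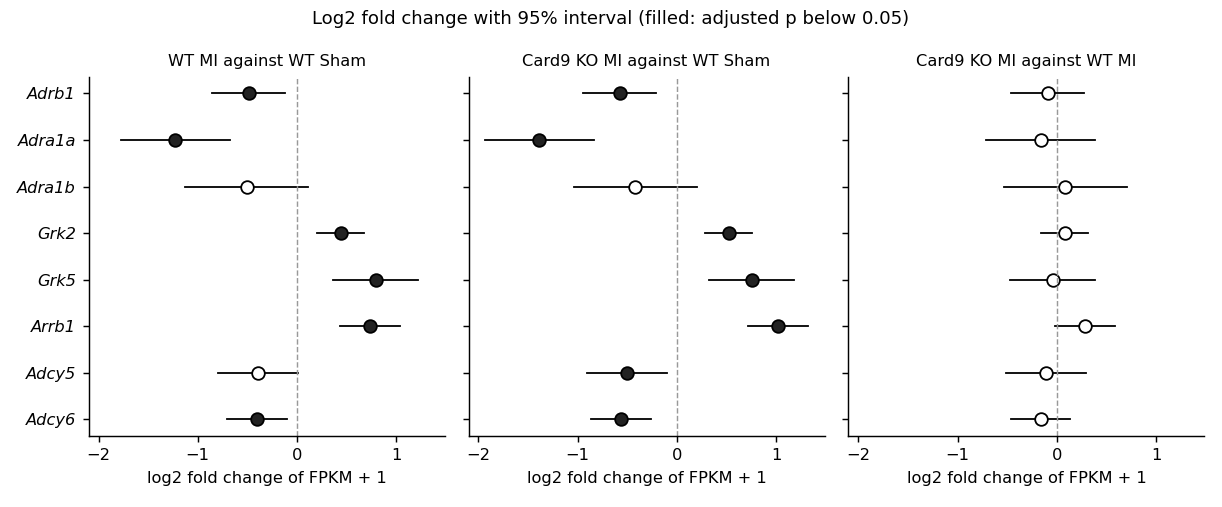
Log2 fold change of FPKM + 1 (horizontal axis) with its 95% interval (lines) for the 8 tested members in the 3 comparisons, 2 libraries per group, filled where the adjusted p was below 0.05. Against WT Sham, *Adra1a* lies at -1.23 and -1.39 and *Arrb1* at 0.74 and 1.02, whereas between the infarct groups all 8 intervals cover 0; with scaling to cardiomyocyte markers *Adrb1*, *Adra1b*, *Adcy5* and *Adcy6* turn above 0 in both comparisons with WT Sham.

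The rest of the pathway was followed with 113 further genes in 11 lists, of which 97 were tested. In WT MI against WT Sham, 28 of the 97 were called higher (28.9%) and 19 lower (19.6%), with a median log2 fold change of 0.01, against 27.7%, 9.39% and 0.19 over all genes. The share called higher was near that of all genes. With scaling to cardiomyocyte markers the counts were 61 higher and 2 lower. They fell to 16 and 18 higher without WT MI replicate 1 or 2, and to 10, 10 and 11 lower without WT Sham replicate 2, WT MI replicate 1 or WT MI replicate 2. In the KO-labelled libraries against WT Sham, 34 (35.1%) were called higher and 29 (29.9%) lower, against 34.8% and 14.3% over all genes, so the higher share was again near that of all genes. The list counts below are to be read against these shares, and the list medians in WT MI against the 0.19 of all genes. Each further value below is an FPKM or a log2 fold change from the same limma fit.

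Upstream of the cyclases, 6 of 12 G protein subunit genes were called higher in WT MI and none lower (median 0.55), where all genes had 27.7% higher and 9.39% lower. *Gng2*, a gamma subunit abundant in leukocytes, stood at 0.90 and 2.28 FPKM in the sham libraries and 7.8 and 6.72 in the WT MI libraries (log2 fold change 1.72, adjusted p = 0.0020). *Gnai3*, an inhibitory alpha subunit, went from 7.63 and 7.35 to 17.1 and 17.5 (1.11, adjusted p = 0.0018). Of the other cyclases, 2 of the 4 tested were called higher and none lower. *Adcy7*, a cyclase of blood cells, stood at 4.82 and 3.28 FPKM in the sham libraries and 9.15 and 9.43 in the WT MI libraries (1.04, adjusted p = 0.0030). Its direction was thus opposite to that of *Adcy6* as deposited.

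Of the other receptor kinases and arrestins, 1 of the 4 tested was called, and it was the second arrestin: *Arrb2*, at 10.8 and 10.6 FPKM in the sham libraries and 31.2 and 39.8 in the WT MI libraries (log2 fold change 1.63, adjusted p = 0.00031). Both beta-arrestins were thus called higher, and *Arrb2* exceeded *Arrb1* in FPKM in every library. Of the other adrenergic receptors, 1 of 4 could be tested, and it was not called (0.04). All genes had 27.7% called higher and 9.39% lower in this comparison.

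Downstream of cAMP, 15 protein kinase A subunit, inhibitor and anchor genes had 4 calls higher and 4 lower, where all genes had 27.7% higher and 9.39% lower. *Akap1*, an anchor at the outer mitochondrial membrane, stood at 66.5 and 67.1 FPKM in the sham libraries and 32.8 and 33.2 in the WT MI libraries (log2 fold change -0.995, adjusted p = 0.00038), and at -0.32 with scaling to cardiomyocyte markers. *Akap12*, another anchor, rose from 11.1 and 11.2 to 19.2 and 17.9 (0.69, adjusted p = 0.0029), and to 1.32 on the log2 scale with that scaling. Both calls were made in each of the 17 alternative settings.

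Of 13 phosphodiesterase genes tested, 2 were called higher and 5 lower, with a median of -0.37, where all genes had 27.7% higher and 9.39% lower. *Pde3a*, which breaks down cAMP in cardiomyocytes, stood at 13.5 and 16.7 FPKM in the sham libraries and 8.80 and 7.55 in the WT MI libraries (log2 fold change -0.81, adjusted p = 0.0059), but was not called with scaling to cardiomyocyte markers (-0.18). *Pde1a*, a phosphodiesterase activated by calcium and calmodulin, went from 2.84 and 2.77 to 7.50 and 7.65 (1.17, adjusted p = 0.0020).

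Of 12 cardiac targets of protein kinase A and phosphatase regulators tested, 2 were called higher and 5 lower, with a median of -0.35, beside the same shares over all genes. *Tnni3*, cardiac troponin I, stood at 4710 and 5189 FPKM in the sham libraries and 2592 and 2572 in the WT MI libraries (log2 fold change -0.94, adjusted p = 0.00065), or -0.25 with scaling to cardiomyocyte markers, where it was still called. *Pln*, phospholamban, the inhibitor of the calcium pump of the sarcoplasmic reticulum, was called lower in the KO-labelled libraries than in WT Sham, at 2898 and 3089 FPKM in the sham libraries, 2027 and 2084 in the WT MI libraries, and 1249 and 1510 in the KO-labelled libraries (-1.12, adjusted p = 0.00019). With scaling to cardiomyocyte markers it was at -0.26, also called. As deposited, *Pln* was called lower in WT MI against WT Sham as well (-0.54, adjusted p = 0.0082 from limma). In the KO-labelled libraries against WT Sham, 10 of the 12 were called lower and 1 higher, where all genes had 14.3% lower and 34.8% higher. With scaling to cardiomyocyte markers, the lower calls over all 11 pathway lists fell from 29 to 5, *Tnni3* and *Pln* among them. As deposited, 11 of the 12 cardiomyocyte markers were called lower in the same comparison.

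Of 11 genes downstream of alpha-1 receptors, 4 were called higher and 1 lower, where all genes had 27.7% higher and 9.39% lower. *Prkcd*, a protein kinase C isoform, stood at 6.99 and 6.47 FPKM in the sham libraries and 20.0 and 19.6 in the WT MI libraries (log2 fold change 1.43, adjusted p = 0.00013). *Prkce*, another isoform, went from 10.6 and 10.2 to 5.70 and 5.99 (-0.74, adjusted p = 0.0079), and its call was lost without WT MI replicate 1 and with scaling to cardiomyocyte markers (-0.13).

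RGS proteins, which speed the return of G protein alpha subunits to their resting form, held the pathway genes called between the infarct groups. Over all 97 pathway genes, 2 were called higher and none lower in the KO-labelled libraries than in WT MI, which is 2.06% against 0.816% over all genes. *Rgs4*, an RGS protein of Gi and Gq, stood at 7.67 and 12.2 FPKM in the sham libraries, 4.0 and 3.85 in the WT MI libraries, and 10.96 and 11.41 in the KO-labelled libraries. Only the WT MI libraries were low, and against WT Sham *Rgs4* was called lower (log2 fold change -1.12, adjusted p = 0.0044), a call lost with scaling to cardiomyocyte markers (-0.53, adjusted p = 0.052). It was called higher in the KO-labelled libraries than in WT MI (1.31, adjusted p = 0.035).

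*Rgs10*, an RGS protein of leukocytes, stood at 7.03 and 7.72 FPKM in the sham libraries, 12.5 and 14.6 in the WT MI libraries, and 29.4 and 26.1 in the KO-labelled libraries. Its log2 fold change between the infarct groups was 0.99 (adjusted p = 0.024 from limma), in step with the marker sums of macrophages, fibroblasts and smooth muscle cells given above, whose part in both calls was not tested. Between the infarct groups, 0 of 10 macrophage markers, 2 of 8 fibroblast markers (*Postn*, 1.57, and *Col1a1*, 1.06) and 1 of 7 smooth muscle and pericyte markers (*Tagln*, 1.47) were called, all higher. Fibroblast markers moved in both directions, from -0.52 to 1.57, as did those of smooth muscle cells and pericytes, from -0.44 to 1.47. Neutrophil markers ran from -1.73 to -0.50 and cardiomyocyte markers from -0.60 to 0.06, none of them called. Both RGS calls were made in 10 of 17 alternative settings and were lost when any infarct library was left out, with log2 fold changes from 1.28 to 1.33 for *Rgs4* and from 0.88 to 1.09 for *Rgs10*.

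**Figure D5:**
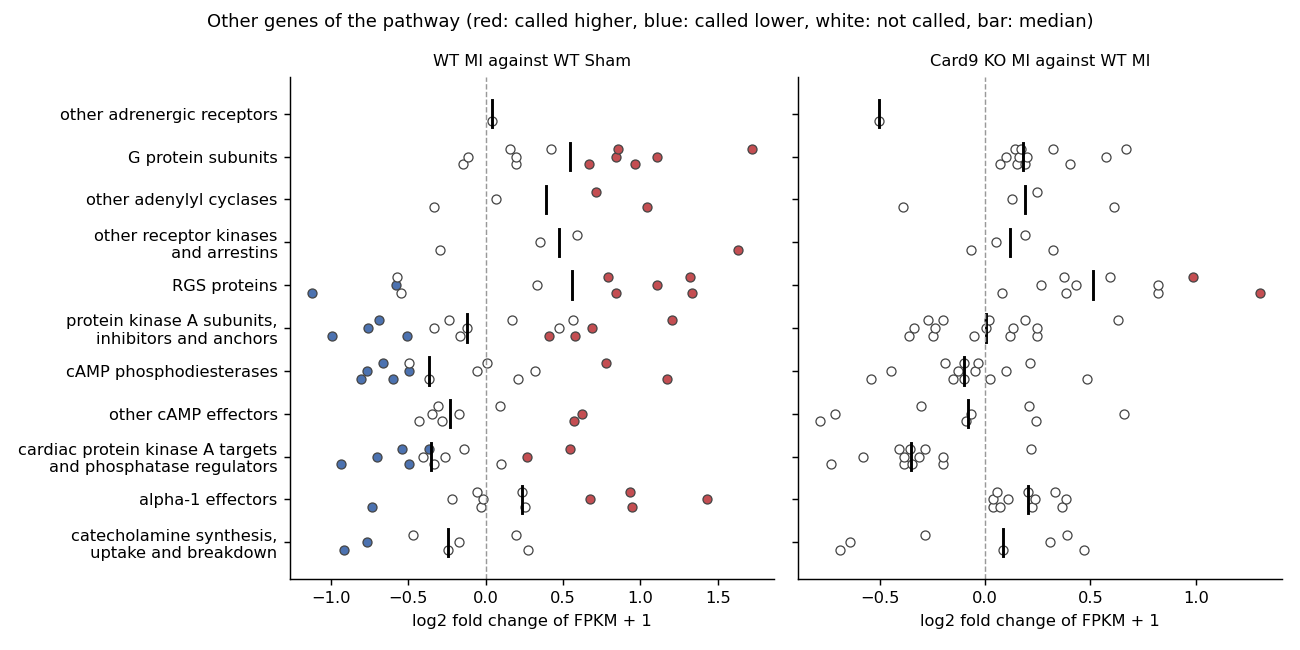
Log2 fold change of FPKM + 1 (horizontal axis) of the 97 tested genes of 11 pathway lists (rows) in WT MI against WT Sham and in the KO-labelled libraries against WT MI, 2 libraries per group, red where called higher, blue where called lower and white where not called, with a bar at the median of each list. On the left 28 genes are red and 19 blue, counts that become 61 and 2 with scaling to cardiomyocyte markers, and on the right 2 RGS genes are red.

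The genes whose profiles over the 6 libraries were nearest to those of the most abundant member of each role were found by the distance between log2 profiles after centring. For *Grk2* these were *Ppig*, *Fkbp9* and *Ptpn23* (distances 0.0642, 0.0662 and 0.071), and for *Adcy6* they were *Tmem106b*, *Pde4c* and *Atg2a* (0.0508, 0.0936 and 0.102). *Pde4c*, itself a cAMP phosphodiesterase, stood at 2.67 and 3.45 FPKM in the sham libraries, 2.11 and 2.15 in the WT MI libraries, and 1.65 and 2.10 in the KO-labelled libraries. For *Adra1b* they were *Trmt13*, *Zfp383* and *Alox5* (0.233, 0.237 and 0.276), which all had their highest FPKM in WT Sham replicate 2, as *Adra1b* did. With 6 libraries and 13120 genes, such likeness is a description of these libraries.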

How the data were processed

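Total RNA was extracted with TRIzol, mRNA was enriched and libraries were sequenced on an Illumina HiSeq. The authors mapped filtered reads to mm9 with BWA and Bowtie2, per the submitters' processing notes, and deposited FPKM values, which relate fragments to gene length and library size, to 2 decimals, with 1 value per NCBI gene number and only genes above 0. The gene annotation and the strand setting of the counting are not given in the sources used here. When a few abundant genes change, the FPKM of every other gene shifts with them.

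Missing genes were set to 0. Gene numbers were matched to symbols with a GRCm38.p6 table, used for names only (17390 of 17441). Counts were not rebuilt: only between 63.3% and 68.3% of low values came within 0.1 of a whole fragment. Estimated fragments and the floor of 3 fragments, worth 0.351 to 0.498 FPKM on 2000 bases, cover counting error only. Log2(FPKM + 1) was fitted with limma 3.58.1 (lmFit, eBayes with trend) in R 4.3.3 for genes that reached 1 FPKM in 2 or more libraries, all 3 groups in one fit without covariates. P-values were adjusted over all 13120 genes by the Benjamini-Hochberg method, and a call is an adjusted p below 0.05. The added 1 understates the change of low genes. The fit was tested on simulated data with independent errors and few changed genes, which does not cover the wide shifts between the groups here. Summaries and plots used Python 3.11.15.

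Each result was refitted with each library left out, with a replicate block, without the eBayes trend, on the 2 groups compared alone, with 0.1 or 5 in place of the added 1, unfiltered, with a filter at a mean of 5 FPKM, and with libraries scaled to 12 cardiomyocyte markers, to the upper quartile (75%), by quantiles or to the sum left after dropping the 100 most abundant genes. Beside *Card9* and the members, the text names, for each list, comparison and direction, at most the 2 called genes with the largest absolute log2 fold change, and 3 genes nearest in profile to the most abundant member of each role. The members and lists were chosen with earlier results of these data known.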

Additional observations from a re-analysis of the deposited data

How the results depend on the processing

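Depth and 2 libraries per group limit the lowest genes and the smallest changes, and a library left alone in its group was assumed to vary as the others do. Cardiomyocyte marker scaling turned the log2 fold changes of *Adrb1*, *Adra1b*, *Adcy5* and *Adcy6* to 0.14, 0.12, 0.25 and 0.26 in WT MI against WT Sham and to 0.21, 0.37, 0.31 and 0.27 in *Card9* KO MI against WT Sham. Between the infarct groups, where no member was called, it turned *Adrb1* (0.0689), *Grk5* (0.13), *Adcy5* (0.057) and *Adcy6* (0.0094), and with single libraries left out the ranges were -0.21 to 0.0299 for *Adrb1*, -0.41 to 0.089 for *Adra1a*, -0.14 to 0.32 for *Adra1b*, -0.31 to 0.23 for *Grk5* and -0.37 to 0.15 for *Adcy5*. This scaling raises all genes of a library whose cardiomyocyte markers are low. In WT MI against WT Sham, 1 member was called lower with no filter, with cardiomyocyte marker scaling and with eBayes without trend, and 1 to 4 with single libraries left out, against 1 to 3 called higher. In *Card9* KO MI against WT Sham, 1 was called lower with cardiomyocyte marker scaling and 1 to 4 with libraries left out.

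Over all genes, 4869 calls in WT MI against WT Sham became 9009 (8878 higher, 131 lower, against 3637 and 1232 as deposited) with cardiomyocyte marker scaling and 2883 to 4675 with libraries left out. The split was 2603 higher and 2159 lower under upper-quartile scaling, 2198 and 2447 under quantile normalization, and 2869 and 1830 without the 100 most abundant genes. For the KO-labelled libraries against WT Sham, the split of 4569 and 1875 became 3230 and 2884, 2755 and 3444, and 3642 and 2527 under these 3, and 9959 and 219 (10178 calls) with cardiomyocyte marker scaling. Between the infarct groups, 184 calls became 80 with 0.1 added, 312 with 5 added, 12 with no filter, 284 at a mean FPKM of at least 5, 409 with cardiomyocyte marker scaling (346 higher, 63 lower), 101 with only the 2 groups, 58 without trend, and 8 to 96 with libraries left out. Their split was 88 and 93 with upper-quartile scaling, against 107 and 77. The causes of the other changes were not tested.

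In WT MI against WT Sham, 28 pathway genes were called higher, against 18 with quantile normalization, 61 with cardiomyocyte marker scaling and 16 to 26 with libraries left out. Those called lower numbered 19, against 30 with upper-quartile scaling, 2 with cardiomyocyte marker scaling and 10 to 21 with libraries left out. In *Card9* KO MI against WT Sham, 34 higher became 21 at a mean FPKM of at least 5, 19 with quantile normalization and 67 with cardiomyocyte marker scaling, which left 5 of 29 lower. Between the infarct groups, the 2 called higher became 0 with no filter, without trend and with the replicate block, and 0 to 2 with libraries left out, while 0 lower became 3 with 5 added, 5 at a mean FPKM of at least 5, 2 with quantile normalization and 1 each with upper-quartile scaling, scaling without the 100 most abundant genes and cardiomyocyte marker scaling. Replicate numbers did not pair the libraries: deviations of same-numbered libraries correlated across genes at 0.0024, -0.0083 and 0.02. With the replicate block, 71 genes were called between the infarct groups (45 higher, 26 lower), the member counts were 3 higher and 3 lower in WT MI against WT Sham and 3 and 4 in *Card9* KO MI against WT Sham, and the pathway counts against WT Sham stayed within 1.5 times.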

Other observations

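Among genes that make, take up or break down noradrenaline, 7 of 11 were tested, and 2 were called lower and none higher in WT MI against WT Sham (median log2 fold change -0.24), where all genes had 9.39% lower and 27.7% higher at a median of 0.19. *Maob*, a mitochondrial monoamine oxidase, stood at 26.4 and 28.9 FPKM in the sham libraries, 16.6 and 15.0 in the WT MI libraries, and 8.49 and 11.2 in the KO-labelled libraries. Its log2 fold change in WT MI against WT Sham was -0.77 (standard error 0.15, adjusted p = 0.0060 from limma), and with scaling to cardiomyocyte markers it was -0.12 and not called. *Slc22a3*, a transporter that clears catecholamines outside nerve endings, stood at 3.50 and 4.49 FPKM in the sham libraries, 2.03 and 1.30 in the WT MI libraries, and 0.53 and 0.75 in the KO-labelled libraries. It was called lower in WT MI (-0.91, adjusted p = 0.018), a call lost with scaling to cardiomyocyte markers (-0.41) and without WT Sham replicate 2 or WT MI replicate 2, and lower in the KO-labelled libraries than in WT Sham (-1.60, adjusted p = 0.0010 from limma).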
